A study of Mus musculus with 6 samples.

Results

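Genes of voltage-gated calcium channels and sodium channels were followed in 2 catecholamine-producing organs of the mouse, the carotid body and the adrenal medulla. The genes were chosen by their symbols: every gene with a probe set of 1 symbol whose name starts as a pore gene (Cacna1, Scn with a final a) or an auxiliary subunit gene (Cacna2d, Cacnb, Cacng, Scn with a final b) of these channels. This gave 35 of 18193 genes, 24 for calcium and 11 for sodium channels, each read from its brightest probe set over all 6 arrays. The 3 carotid body arrays and the 3 adrenal medulla arrays each carried RNA of 1 pool, made from 18 carotid bodies or 10 adrenal medullas of 10 mice. All animals were untreated adults of strain C57/BL6. Equal group numbers mark 1 cohort of animals, per the submitters, so arrays 1, 2 and 3 of the tissues pair by cohort. A pool of a whole organ mixes cell types, so fewer cells of a type and less RNA per cell cannot be told apart.

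These channels turn a change in membrane voltage into an inward flow of ions. In calcium channels the alpha 1 protein, from a Cacna1 gene, forms the pore and sets the type: L-type pores pass long-lasting currents, P/Q- and N-type pores trigger transmitter release at nerve endings, and T-type pores open at weak depolarisation. Beta subunits bring L-, P/Q-, N- and R-type pores to the membrane and tune their gating, and alpha2delta subunits, which sit outside the cell, raise the number of working channels. Sodium channel pores carry the action potential, and their beta subunits shape its kinetics. In glomus cells, the oxygen-sensing cells of the carotid body, and in chromaffin cells of the adrenal medulla, calcium entry through such channels triggers secretion of catecholamines.

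The tissues were recognisable by their markers. Olfr78, an olfactory receptor of glomus cells, was at 11.18 to 11.90 in carotid body, against 4.96 to 5.89 in adrenal medulla. Of 4 glomus cell markers 3 were called higher in carotid body and 1 lower. The lower one was Th, also a catecholamine cell marker, at 11.42 to 11.89 in carotid body, against 12.97 to 13.83 in adrenal medulla. Pnmt, which makes adrenaline, was at 11.13, 7.65 and 8.08 in carotid body, highest in pool 1, against 13.17 to 13.84 in adrenal medulla. Here and below, levels are log2 probe set intensities. Adrenal cortex RNA was present in all adrenal medulla pools and in carotid body pool 1. Star, of steroid synthesis, was at 12.06, 3.85 and 3.81 on the carotid body arrays and 13.52 to 13.95 on the adrenal medulla arrays. Most markers of glia, smooth muscle and fibroblasts were brighter on the carotid body arrays, with values given beside the channel genes below. Xist, transcribed from the inactive X chromosome of females, was at 8.84 to 10.96 in carotid body, against 4.45 to 5.60 in adrenal medulla. The sex of the animals is not in the labels, so sex and tissue cannot be told apart. Every cohort pair had this gap, so equal cohort numbers need not mean that both pools came from the same mice. The 3′ minus 5′ signal of Gapdh, a sign of RNA integrity, was 0.59 to 1.45 on the carotid body arrays and 0.13 to 0.61 on the adrenal medulla arrays, and its part in the results was not tested.

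The carotid body had more RNA of the atypical sodium channel Scn7a, the alpha2delta subunit Cacna2d3 and the sodium channel subunit Scn4b. It had less RNA of the L-type pore Cacna1c, the T-type pore Cacna1h and the calcium channel subunits Cacnb2 and Cacnb1. These 7 of 35 genes, against 12.0% of all genes tested, passed an adjusted p under 0.05 with a difference of at least 2-fold (limma, moderated over all probe sets, Benjamini-Hochberg). Of the 35, 3 were higher in carotid body, against 5.91% of all genes tested, and 4 were lower, against 6.08%. The difference between these shares was not tested. The arrays of the tissues did not overlap for 17 of the 35 genes, against 43.9% of all genes. The median difference of the 35 genes, carotid body minus adrenal medulla on the log2 scale, was -0.04, the same as the -0.04 of all genes. At an adjusted p under 0.05 with no fold minimum, 7 members were higher and 7 lower, against 10.9% and 16.5% of all genes. Of the members, 11 lay below the median probe set on all 6 arrays, where a low intensity does not separate faint from absent RNA; 0 of these 11 and 7 of the other 24 were called.

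**Figure D1:**
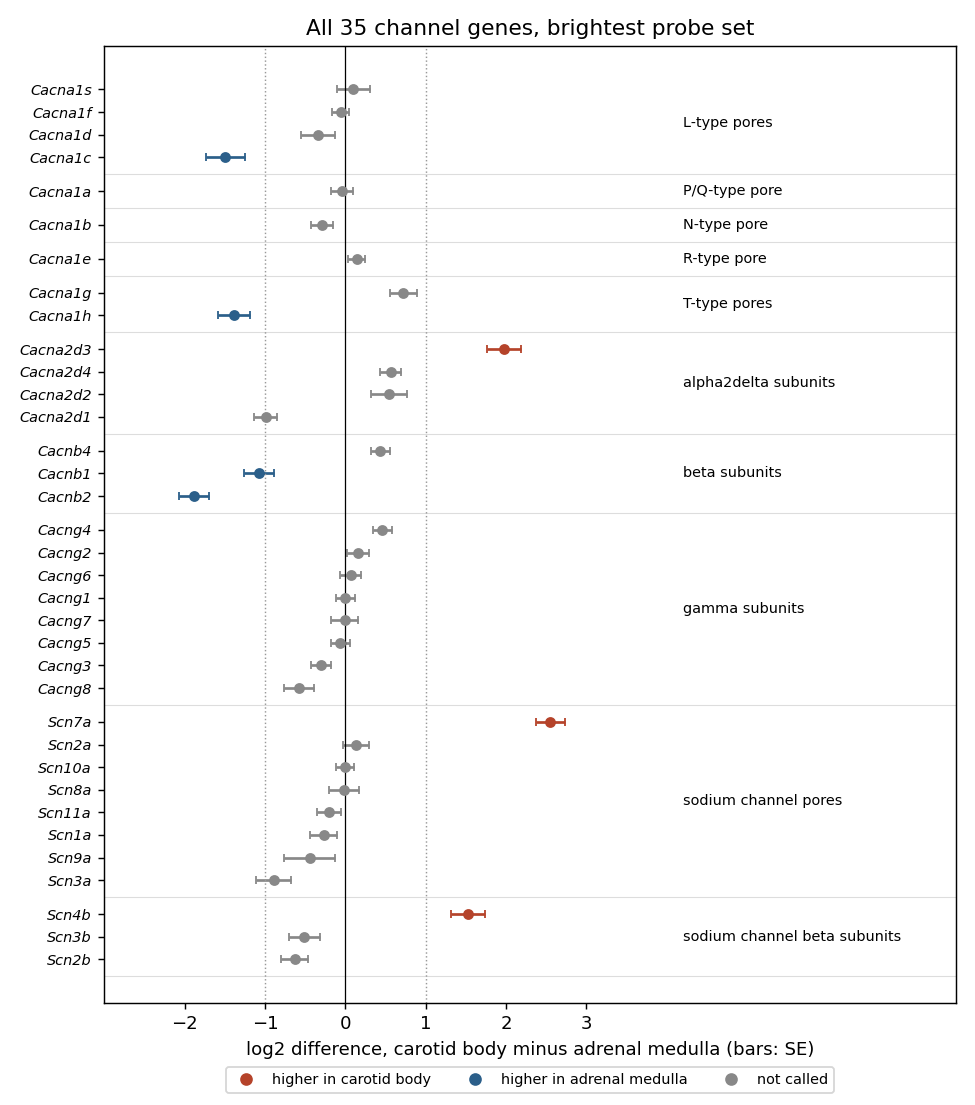
The log2 difference of each of the 35 genes (x axis, carotid body minus adrenal medulla, with its SE) is drawn by channel class, with dotted lines at 2-fold. The 3 genes higher in carotid body lie at 1.53 to 2.55 and the 4 higher in adrenal medulla at -1.89 to -1.08, and the gamma subunits all lie between -0.57 and 0.46.

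Among 4 L-type pore genes, 1 fell in carotid body, 0 rose and 3 did not pass the test. Cacna1c, the L-type pore of heart, smooth muscle and neurons, was at 6.06, 5.50 and 5.98 on the carotid body arrays, against 7.85, 7.14 and 7.03 on the adrenal medulla arrays. No carotid body array reached the lowest adrenal medulla array. Its mean was 5.84 ± 0.30 in carotid body, against 7.34 ± 0.44 in adrenal medulla (SD over 3 pools each). The difference was -1.49 ± 0.25 (SE; adjusted p = 0.00467), or 2.82-fold higher in adrenal medulla. The other Cacna1c probe set gave -1.17 ± 0.17 (SE; adjusted p = 0.00267). The cohorts gave differences of -1.79, -1.64 and -1.05. Of 11 markers of smooth muscle, whose cells also use this pore, 9 were called higher in carotid body and 0 lower. Des was below adrenal medulla on all carotid body arrays (-0.47). The summed linear intensity of the 11 markers was 42021 to 47837 in carotid body, against 6754 to 9681 in adrenal medulla. The part of smooth muscle cells in the level of Cacna1c was not tested.

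Cacna1d, the L-type pore that opens at more negative voltages and drives pacemaking in mouse chromaffin cells, was at 7.88, 8.60 and 8.19 in carotid body, against 8.30, 8.76 and 8.63 in adrenal medulla. The tissues overlapped, and the difference of -0.34 ± 0.21 (SE; adjusted p = 0.295) did not pass. A dimmer probe set of Cacna1d gave -0.67 ± 0.18 (SE; adjusted p = 0.031), under 2-fold. Cacna1f, the pore of retinal photoreceptors, was at 4.38, 4.28 and 4.40 in carotid body, against 4.42, 4.46 and 4.36 in adrenal medulla. Cacna1s, the pore of skeletal muscle, was at 3.74, 4.28 and 3.45 on carotid body arrays and 3.72, 3.72 and 3.73 on adrenal medulla arrays. Both lay below the median probe set on every array, and their differences were -0.06 and 0.10. Of 11 skeletal muscle markers, 7 were also below the array median on all 3 arrays of each tissue. Myl1, of the same list, was called lower in carotid body, at -1.83 (limma adjusted p = 0.000395), and 0 of the list were called higher. The summed linear intensity of the 11 markers was 316 to 354 in carotid body, against 459 to 522 in adrenal medulla.

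The P/Q-type pore Cacna1a, a main trigger of transmitter release at central synapses, gave different answers by probe set. Its brightest probe set was at 5.47, 5.04 and 5.30 in carotid body, against 5.27, 5.23 and 5.43 in adrenal medulla, a difference of -0.04 ± 0.14 (SE; adjusted p = 0.873). Another of its 4 probe sets was at 4.32, 3.95 and 4.53 in carotid body, against 5.48, 5.57 and 5.61 in adrenal medulla, a difference of -1.28 ± 0.16 (SE; adjusted p = 0.0015). On that probe set every carotid body array was below every adrenal medulla array; the remaining 2 gave 0.07 and 0.10. Which of them follows the P/Q-type transcript of these tissues was not tested.

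For the N-type pore Cacna1b, which drives release from sympathetic nerve endings and is found in chromaffin cells, no difference passed. The brightest probe set was at 7.97, 7.93 and 7.90 in carotid body, against 7.97, 8.43 and 8.28 in adrenal medulla. Array 1 of adrenal medulla fell among the carotid body values, and the difference was -0.29 ± 0.14 (SE; adjusted p = 0.191). Across 4 probe sets of Cacna1b the differences spanned -0.29 to 0.22, with 0 called. The R-type pore Cacna1e was at 4.32, 4.28 and 4.22 on carotid body arrays and 4.18, 4.16 and 4.05 on adrenal medulla arrays and lay below the array median throughout, though its arrays did not overlap. The difference of Cacna1e was 0.14 ± 0.11 (SE; adjusted p = 0.395).

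The T-type pores Cacna1h and Cacna1g had differences of opposite sign. Cacna1h, found in sensory neurons, adrenal glomerulosa cells and glomus cells, was at 7.09, 6.95 and 7.28 in carotid body, against 8.80, 8.63 and 8.06 in adrenal medulla. The highest carotid body array was below the lowest adrenal medulla array. Its mean was 7.11 ± 0.16 in carotid body, against 8.49 ± 0.39 in adrenal medulla (SD over 3 pools each), a difference of -1.39 ± 0.20 (SE; adjusted p = 0.00277), or 2.62-fold higher in adrenal medulla. The dimmer of its 2 probe sets gave 0.12 ± 0.20 (SE; adjusted p = 0.726). Cacna1g, a pore of thalamic neurons and cardiac pacemaker cells, was at 5.58, 5.71 and 6.08 in carotid body, against 5.25, 4.86 and 5.09 in adrenal medulla. All carotid body arrays were above all adrenal medulla arrays of Cacna1g, and the difference of 0.72 ± 0.17 (SE; adjusted p = 0.0192), 1.65-fold, was under the 2-fold minimum. Cacna1i was not analysed here.

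Between the tissues, cortex markers had the same direction as Cacna1c, Cacna1h, Cacnb1 and Cacnb2, genes taken up here because they were lower in carotid body. Cortex markers gave 0 higher and 8 lower calls in carotid body, of 9 measured. Their summed linear intensity was 23083 on carotid body array 1, 764 and 678 on the other carotid body arrays, and 58652 to 79684 on the adrenal medulla arrays; only Cyp11b2, the aldosterone synthase of glomerulosa cells, was below the array median on all carotid body arrays. Of the carotid body arrays, array 1 was the highest for Cacna1c and Cacnb2, lay between the others for Cacna1h and was the lowest for Cacnb1. Without carotid body array 1 the differences were -1.60 for Cacna1c, -1.38 for Cacna1h, -2.07 for Cacnb2 and -0.89 for Cacnb1, the last then under 2-fold. Of 9 catecholamine cell markers, 7 were also called lower in carotid body. Their summed linear intensity was 34069 to 38469 in carotid body, against 81271 to 106021 in adrenal medulla. Ddc, of the same list, went the other way, at 0.81 (limma adjusted p = 0.0207), under 2-fold and without overlap. The part of cortex or catecholamine cells in these differences was not tested. Leaving out both cohort 2 arrays ended the calls of Cacna1c, Cacna1h and Cacnb1 (limma adjusted p = 0.0625, 0.0721 and 0.0695), and the mean of all probe sets ended those of Cacna1h and Cacnb1 (differences of -0.63 and -0.32).

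**Figure D2:**
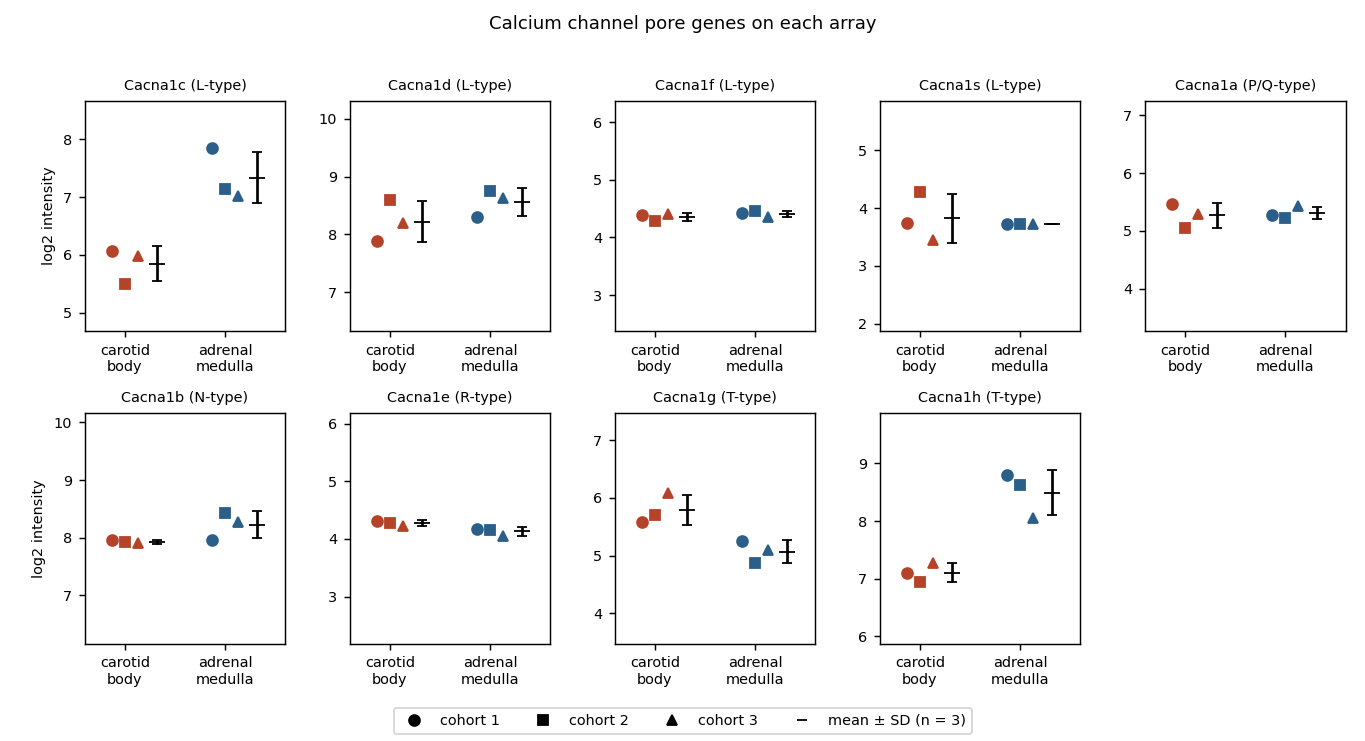
Log2 intensity (y axis, a window of the same width in all panels) of each calcium channel pore gene is shown on the 3 carotid body and 3 adrenal medulla arrays, with symbols by cohort and the mean ± SD. Cacna1c and Cacna1h are lower on all carotid body arrays by 1.49 and 1.39 on average, and Cacna1g is higher on all of them by 0.72.

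The alpha2delta genes differed most between the tissues in Cacna2d3 and Cacna2d1, with opposite signs. Cacna2d3, a subunit found in brain and in sensory neurons, was at 6.18, 6.78 and 6.99 in carotid body, against 4.81, 4.59 and 4.62 in adrenal medulla. Its lowest carotid body value stood more than 1 log2 unit above the highest adrenal medulla value. Its mean was 6.65 ± 0.42 in carotid body, against 4.67 ± 0.12 in adrenal medulla (SD over 3 pools each), a difference of 1.98 ± 0.21 (SE; adjusted p = 0.000652), or 3.94-fold. All 3 adrenal medulla values of Cacna2d3 lay below the array median. Cacna2d1, the widely expressed subunit that binds gabapentin, was at 10.44, 9.97 and 10.16 in carotid body, against 11.13, 11.22 and 11.19 in adrenal medulla. The arrays did not overlap; the difference of -0.99 ± 0.14 (SE; adjusted p = 0.00255), 1.99-fold higher in adrenal medulla, missed the 2-fold minimum. Of its 5 probe sets 2 were called lower in carotid body, at -2.22 and -1.71, and 0 higher, within a range of -2.22 to 0.61. Cacna2d1 passed both limits with median-centred arrays (-1.11), with array weights (-1.03), and on leaving out array 1 of carotid body (-1.12), array 1 of adrenal medulla (-1.02) or both cohort 1 arrays (-1.14).

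Cacna2d2, a subunit of cerebellar neurons that also binds gabapentin, was at 8.84, 9.17 and 9.54 in carotid body, against 8.26, 8.77 and 8.87 in adrenal medulla. The tissues overlapped by 1 carotid body array, and the difference of 0.55 ± 0.22 (SE; adjusted p = 0.126) did not pass. Cacna2d4, a subunit of photoreceptors, was at 4.57, 4.70 and 4.29 on carotid body arrays and 3.96, 3.91 and 4.00 on adrenal medulla arrays. Its difference was 0.57 ± 0.13 (SE; adjusted p = 0.0198), under 2-fold, on a probe set below the array median throughout.

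Beta subunit genes had 2 of 3 members lower in carotid body and 0 higher. Cacnb2, the main partner of the cardiac L-type pore, was at 5.65, 5.17 and 5.01 in carotid body, against 7.29, 7.21 and 6.99 in adrenal medulla. This was the widest drop of any member, with every carotid body array more than 1 log2 unit below every adrenal medulla array. Its mean was 5.28 ± 0.33 in carotid body, against 7.16 ± 0.16 in adrenal medulla (SD over 3 pools each), a difference of -1.89 ± 0.18 (SE; adjusted p = 0.000481), or 3.69-fold higher in adrenal medulla, and its other probe set gave -1.54 ± 0.20 (SE; adjusted p = 0.0018). Cacnb1, the partner of the skeletal muscle pore that is also found in neurons, was at 4.85, 5.42 and 5.38 in carotid body, against 6.06, 6.43 and 6.40 in adrenal medulla. No array overlapped, and the mean of Cacnb1 was 5.22 ± 0.32 in carotid body, against 6.29 ± 0.21 in adrenal medulla (SD over 3 pools each). The difference of Cacnb1 was -1.08 ± 0.19 (SE; adjusted p = 0.00595), or 2.11-fold higher in adrenal medulla, and the other 3 of its 4 probe sets gave -0.38 to 0.21 with 0 called. Cacnb4, a subunit of cerebellar neurons, was at 6.37, 6.33 and 6.12 in carotid body, against 5.80, 5.90 and 5.82 in adrenal medulla. Its difference ran the other way, at 0.43 ± 0.12 (SE; adjusted p = 0.0331), under 2-fold. Cacnb3 was not analysed here.

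None of 8 gamma subunit genes reached 2-fold. Cacng1 and Cacng6 belong to the skeletal muscle type, and most of the others encode companions of AMPA-type glutamate receptors. Cacng4 was at 6.67, 6.87 and 6.91 in carotid body, against 6.38, 6.28 and 6.40 in adrenal medulla, again without overlap, a difference of 0.46 ± 0.12 (SE; adjusted p = 0.0256). It was the single gamma gene past the adjusted p of 0.05. The brightest gamma probe set, of Cacng7, was at 7.18, 6.97 and 7.33 in carotid body, against 6.87, 7.37 and 7.27 in adrenal medulla, and the difference was -0.01 ± 0.17 (SE; adjusted p = 0.983). The arrays of Cacng8 did not overlap either, at 4.21 to 4.93 in carotid body, against 5.12 to 5.29 in adrenal medulla, with a difference of -0.57 ± 0.19 (SE; adjusted p = 0.0638). Differences of Cacng1, Cacng2, Cacng3, Cacng5 and Cacng6 lay between -0.30 and 0.15, and all of these but Cacng2 were below the array median on every array.

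Scn7a stood apart among 8 sodium channel pore genes. It encodes a channel that responds to the sodium concentration rather than to voltage and is known in glial cells. Its probe set was at 11.62, 11.60 and 11.27 in carotid body, against 8.60, 9.12 and 9.11 in adrenal medulla. The gap between the lowest carotid body and the highest adrenal medulla array was wider than the whole spread within either tissue. Its mean was 11.49 ± 0.20 in carotid body, against 8.94 ± 0.29 in adrenal medulla (SD over 3 pools each), a difference of 2.55 ± 0.18 (SE; adjusted p = 0.000121), or 5.87-fold. The 3 cohorts gave 3.01, 2.48 and 2.16. The other probe sets of Scn7a, both called, gave 3.01 and 1.58.

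Between the tissues, most Schwann and glial cell markers were called in the same direction as Scn7a. Glial markers gave 8 higher and 0 lower calls in carotid body, of 9 measured, with a median difference of 2.24. Their summed linear intensity was 14978 to 16649 in carotid body, against 3801 to 4043 in adrenal medulla. Fibroblast markers moved likewise, 7 of 7 higher, with sums of 45367 to 54120 in carotid body, against 6636 to 8384 in adrenal medulla. In adrenal medulla the glial marker Gfap alone was below the array median on all arrays. The part of these cells in the levels of Scn7a, Cacna2d3 and Scn4b was not tested.

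None of the other 7 sodium channel pore genes was called. Scn3a, known in developing neurons and in rodent chromaffin cells, was at 7.87, 7.78 and 8.16 in carotid body, against 8.43, 8.82 and 9.24 in adrenal medulla. All carotid body arrays were below the adrenal medulla arrays, and the difference of -0.89 ± 0.21 (SE; adjusted p = 0.0207), 1.86-fold higher in adrenal medulla, was under 2-fold. Its second probe set gave 0.04. Scn3a passed both limits with median-centred arrays (-1.01) and on leaving out array 3 of carotid body (-1.01), array 1 of adrenal medulla (-1.09) or both cohort 1 arrays (-1.06). Scn9a, the pore of nociceptors and sympathetic neurons that is also found in chromaffin cells, was at 6.10, 6.04 and 5.59 on carotid body arrays and 5.75, 6.24 and 7.06 on adrenal medulla arrays. Array 3 of adrenal medulla stood above the others for Scn9a, the tissues overlapped, and the difference was -0.44 ± 0.32 (SE; adjusted p = 0.378). Scn8a, the pore of nodes of Ranvier, was at 6.55, 6.95 and 6.80 on carotid body arrays and 6.42, 6.94 and 6.99 on adrenal medulla arrays. The difference of Scn8a, -0.02 ± 0.19 (SE; adjusted p = 0.955), was smaller than its SE, and differences over 5 probe sets spanned -0.12 to 0.17.

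Scn2a, a pore of central axons, was at 5.29 to 5.48 in carotid body, against 4.90 to 5.45 in adrenal medulla, a difference of 0.13. Scn1a, of central interneurons, and Scn10a and Scn11a, of nociceptors, lay below the array median on all arrays, with differences of -0.27, -0.01 and -0.20. In RefSeq's gene table Scn3a, Scn2a, Scn1a, Scn9a and Scn7a follow each other in that order among the members on chromosome 2. Within this row Scn7a, at one end, was called higher in carotid body, while Scn3a, at the other, had the largest difference toward adrenal medulla. Of 10 markers of ganglion neurons, which could bring such pores with them, 1 was called higher in carotid body and 1 lower. These were far apart, Gap43 at 5.27 and Rbfox3 at -2.85. The summed linear intensities of the 10 markers were 6760 to 10525 in carotid body, against 4773 to 8325 in adrenal medulla. The part of neurons in the levels of these pore genes was not tested. Scn4a was not analysed here.

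Sodium channel beta subunits went both ways. Scn4b, a subunit linked to resurgent sodium current in neurons, was at 5.23, 5.73 and 5.83 in carotid body, against 3.76, 4.05 and 4.40 in adrenal medulla. The tissues did not overlap, and each cohort gave a similar difference, 1.47, 1.69 and 1.43. The mean of Scn4b was 5.60 ± 0.32 in carotid body, against 4.07 ± 0.32 in adrenal medulla (SD over 3 pools each), a difference of 1.53 ± 0.22 (SE; adjusted p = 0.00244), or 2.89-fold. Its adrenal medulla values and carotid body array 1 lay below the array median, the filter on dim probe sets removed it, and without both cohort 2 arrays its adjusted p was 0.0665. Scn3b, a subunit of neurons, was at 8.41, 8.85 and 8.75 in carotid body, against 8.83, 9.34 and 9.38 in adrenal medulla. The difference of Scn3b was -0.51 ± 0.19 (SE; adjusted p = 0.0947); a fit blocked by cohort lowered the adjusted p to 0.0267, with the size still under 2-fold. Scn2b, which is bound to neuronal pores by a disulfide bond, was at 6.96, 7.28 and 7.26 on carotid body arrays and 7.57, 7.73 and 8.10 on adrenal medulla arrays. It did not overlap between tissues, and its difference was -0.63 ± 0.17 (SE; adjusted p = 0.0317), under 2-fold. Scn2b and Scn4b are neighbours among the members on chromosome 9, with differences of opposite sign.

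**Figure D3:**
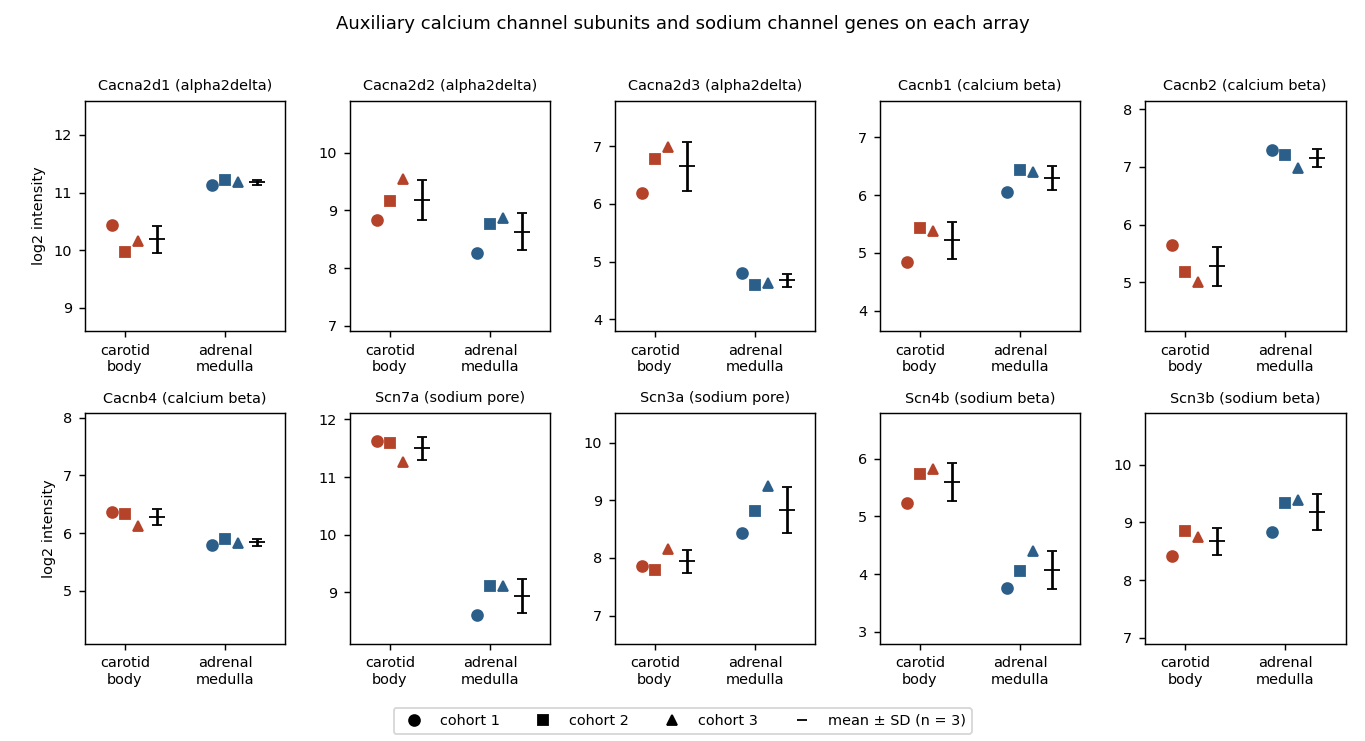
Log2 intensity (y axis, a window of at least 4 log2 units per panel) of alpha2delta, calcium channel beta and sodium channel genes is shown on each array, with symbols by cohort and the mean ± SD. Cacna2d3, Scn7a and Scn4b are higher on all carotid body arrays, by 1.98, 2.55 and 1.53 on average, and Cacnb1 and Cacnb2 are lower on all of them, by 1.08 and 1.89.

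The choice of probe set mattered for several genes. The 35 genes had 85 probe sets, 26 genes having several, and 9 genes had a called probe set: the 7 above, Cacna1a and Cacna2d1. Of the 85 probe sets 5 were called higher in carotid body, against 5.95% of all probe sets, and 9 lower, against 4.58%. For 0 of the genes were probe sets called in opposite directions. Every probe set of Scn7a, Cacna1c and Cacnb2 was called; Cacna2d3 and Scn4b have 1 probe set each. For Cacna1h and Cacnb1 the call rests on the brightest probe set alone.

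**Figure D4:**
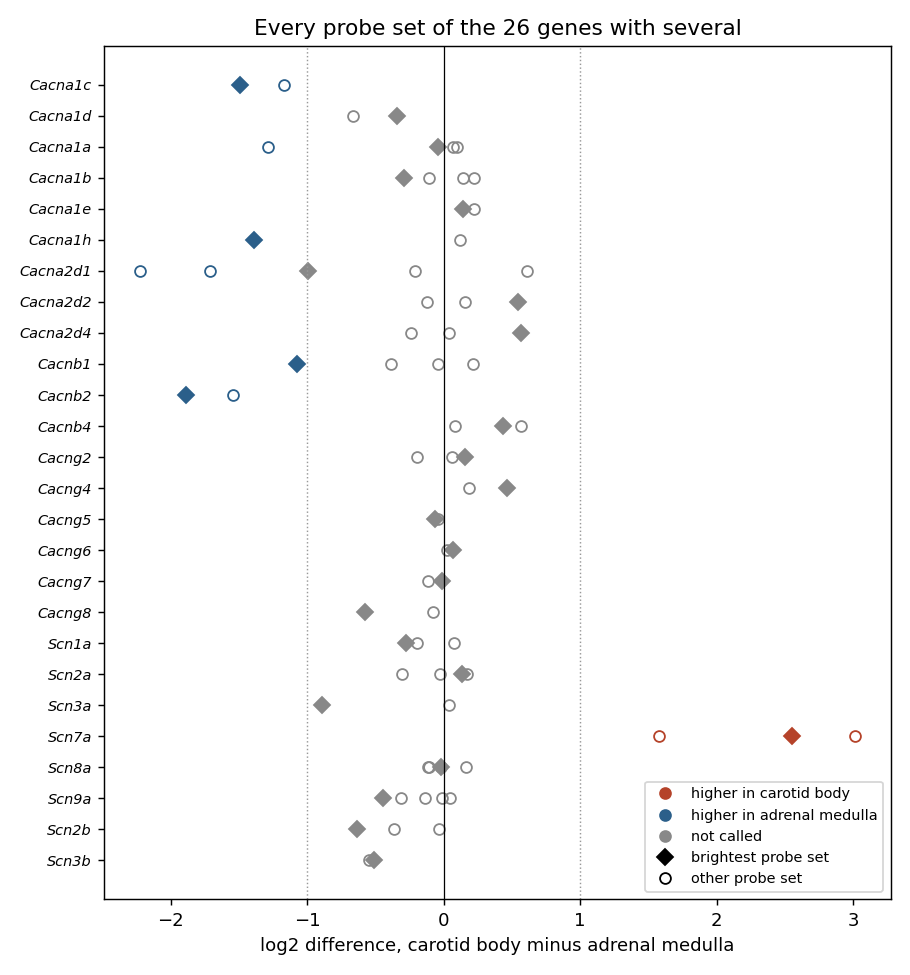
Each symbol is the log2 difference (x axis, carotid body minus adrenal medulla) of 1 probe set of the 26 genes with several; diamonds mark the brightest, colour the call, and dotted lines 2-fold. The 3 probe sets of Scn7a lie at 1.58 to 3.01, while those of Cacna2d1 spread from -2.22 to 0.61.

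The stretches before the start sites of the 3 genes called higher in carotid body are shown. These genes are of different classes and chromosomes, and their shared direction follows from that choice. Each is the 250 bases up to the annotated start, from RefSeq on build GRCm38.p6, 5′ to 3′ on the gene's strand; 27 of the 35 genes had such a window, 37 windows in all. Capitals mark the motifs CANCTG (an E-box, N being any base) and GGGCGG (a GC box, read as CCGCCC on the other strand), searched on both strands.
Scn7a, chr2:66784911-66785160, minus strand: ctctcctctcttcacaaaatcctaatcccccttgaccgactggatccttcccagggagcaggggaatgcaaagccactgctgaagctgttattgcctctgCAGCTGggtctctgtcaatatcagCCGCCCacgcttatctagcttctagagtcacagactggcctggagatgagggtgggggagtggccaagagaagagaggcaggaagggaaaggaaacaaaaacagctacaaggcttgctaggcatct
Cacna2d3, chr14:29721865-29722114, minus strand: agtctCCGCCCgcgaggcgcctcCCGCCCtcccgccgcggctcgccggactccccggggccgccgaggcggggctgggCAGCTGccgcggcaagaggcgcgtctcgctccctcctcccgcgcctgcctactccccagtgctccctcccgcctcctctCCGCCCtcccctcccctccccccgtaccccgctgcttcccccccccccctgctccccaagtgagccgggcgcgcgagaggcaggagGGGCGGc
Scn4b, chr9:45138374-45138623, plus strand: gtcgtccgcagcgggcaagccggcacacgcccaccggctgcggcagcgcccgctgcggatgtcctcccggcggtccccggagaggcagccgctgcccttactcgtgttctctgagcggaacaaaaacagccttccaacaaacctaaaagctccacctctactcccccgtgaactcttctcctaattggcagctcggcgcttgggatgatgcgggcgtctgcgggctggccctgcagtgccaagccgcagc
The window of Scn7a has 53.2% G and C and 3 CG pairs, with 1 CANCTG and 1 GGGCGG. That of Cacna2d3 has 80% G and C and 30 CG pairs, with 1 CANCTG and 4 GGGCGG, and that of Scn4b 66% and 23 CG pairs, with neither motif. Over all 32851 windows the median was 52.4% G and C, and 44.8% held CANCTG and 32.7% GGGCGG; in the channel genes 19 and 14 of 37 windows did. ACGTG, the core of hypoxia response elements, was in 16.6% of all windows and in 3 of 37 windows of the channel genes, 1 each of Cacna1c, Cacng6 and Cacnb1. The arrays do not show which start was in use, and a match of letters is a description only.

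Genes listed as working with these channels were read from 5 lists with 78 measured genes. Of these, 6 were higher in carotid body, against 5.91% of all genes, and 16 lower, against 6.08%, with a median difference of -0.09 beside -0.04 for all genes. Among 20 presynaptic and exocytosis partners of calcium channels, 5 were lower in carotid body and 0 higher, with a median of -0.31. At an adjusted p under 0.05 with no fold minimum, 6 were lower and 2 higher, Cask (0.93) and Unc13b (0.78). Of dimmer probe sets, 1 of Syt1 was called higher, in a range of -0.46 to 2.08 for that gene. For Rims2, 1 was called lower, in a range of -1.06 to 0.12. Rims3, a short member of the RIM family at release sites, was at 6.58, 5.84 and 5.43 in carotid body, against 9.02, 9.95 and 9.65 in adrenal medulla. All carotid body arrays of Rims3 were far below the adrenal medulla arrays, a difference of -3.59 ± 0.33 (SE; adjusted p = 0.000372); its other probe set gave -0.70, and the mean of both was -2.15. Pclo, the active zone scaffold piccolo, was at 6.52 to 7.16 on carotid body arrays and 9.24 to 9.86 on adrenal medulla arrays, a difference of -2.81 ± 0.22 (SE; adjusted p = 0.000192), with all 3 probe sets called. Erc2, another active zone scaffold, differed by -1.79, and Rimbp2, which links RIM proteins to calcium channels, by -1.59; the Rimbp2 call was lost without both cohort 2 arrays (adjusted p = 0.0541). Genes of the membrane fusion proteins Stx1a and Snap25 did not pass: Stx1a, the syntaxin that binds N- and P/Q-type pores, differed by -0.15 (adjusted p = 0.599) and Snap25 by -0.48 (adjusted p = 0.128). Most catecholamine cell markers were also lower in carotid body, as given above, and their part in the called genes of this list was not tested.

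Of 18 calcium channel regulators and calcium sensors, 2 were higher in carotid body and 3 lower. The brightest probe set of Camk2d was not called, but 1 dimmer probe set was called higher and 1 lower, in a range of -1.42 to 1.20. Akap12, a scaffold for protein kinase A, was at 12.61, 12.99 and 12.53 in carotid body, against 8.98, 9.39 and 9.51 in adrenal medulla, a difference of 3.42 ± 0.19 (SE; adjusted p = 4.2e-05). Ahnak, a giant scaffold that binds calcium channel beta subunits, was at 12.16 to 12.39 on carotid body arrays and 9.52 to 9.76 on adrenal medulla arrays, a difference of 2.64 ± 0.13 (SE; adjusted p = 2.69e-05); 4 probe sets spanned 0.08 to 2.64, with 1 called, and their mean of 0.94 was under 2-fold. Both were far apart between the tissues. In the same pools 7 of 7 fibroblast, 8 of 9 glial and 9 of 11 smooth muscle markers were also called higher in carotid body. The part of these cells in the levels of Akap12 and Ahnak was not tested. Camk2b, a calmodulin kinase subunit, differed by -1.38 (adjusted p = 0.124 without both cohort 2 arrays), and Cabp1, a calcium-binding protein of neurons, by -1.17 on a probe set that the filter on dim probe sets removed. The Cabp1 call was also lost without adrenal medulla array 2 (-0.95, under 2-fold) and without both cohort 3 arrays (adjusted p = 0.0535).

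In the list of intracellular calcium release and clearance, 1 of 19 genes was higher and 4 lower. For Atp2a2, not called, 1 dimmer probe set was called higher, in a range of -0.61 to 1.21. Atp2a3, a calcium pump of the endoplasmic reticulum, was at 9.09, 9.58 and 9.26 in carotid body, against 6.95, 6.94 and 6.87 in adrenal medulla, a difference of 2.39 ± 0.15 (SE; adjusted p = 6.39e-05). Its other probe set gave 0.41 and was not called, and the mean of both was 1.40. Atp2b3, a calcium pump of the plasma membrane, differed the other way and was at 8.28 to 8.51 in carotid body, against 9.53 to 10.08 in adrenal medulla, a difference of -1.39 ± 0.16 (SE; adjusted p = 0.001). Atp2b2, another such pump, differed by -1.36, and the release channel Ryr3 by -1.53. For Atp2b2 and Ryr3 only the brightest of 3 probe sets was called, Ryr3 ranging from -1.53 to 0.06. The mean of all probe sets ended both calls, at -0.93 for Atp2b2 and -0.50 for Ryr3, and the Ryr3 call was also lost without both cohort 2 arrays (adjusted p = 0.0716).

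The list of sodium channel partners had 3 of 17 genes higher and 4 lower. It also held Mpzl1, Mpzl2, Atp1b1 and Atp1b2, whose tie to sodium channels was not tested. Of these, Mpzl1 and Mpzl2 were called higher and Atp1b1 lower. For Ank3, not called, 1 dimmer probe set was called higher, in a range of -0.005 to 1.54. The factors Fgf12 and Fgf14, which stay in the cell and bind the tail of sodium channel pores, went in opposite directions. Fgf12 was at 7.63, 7.92 and 8.04 in carotid body, against 5.41, 6.13 and 6.54 in adrenal medulla, a difference of 1.84 ± 0.27 (SE; adjusted p = 0.00304). Fgf14 was at 3.70, 4.23 and 3.61 on carotid body arrays and 5.66, 6.47 and 6.94 on adrenal medulla arrays, a difference of -2.51 ± 0.32 (SE; adjusted p = 0.00162). Neither overlapped between the tissues; the 4 probe sets of Fgf14 spanned -2.51 to 0.69, with 1 called, and the 3 of Fgf12 spanned 0.44 to 1.84, with 1 called. The mean of all probe sets was -0.38 for Fgf14, no longer called, and 1.07 for Fgf12. The filter on dim probe sets removed Fgf14, and Fgf12 had an adjusted p of 0.0679 without both cohort 2 arrays. Nrcam, an adhesion molecule of the axon initial segment and nodes, differed by -3.05 ± 0.29 (SE; adjusted p = 0.000427), with 2 of 4 probe sets called and a mean over them of -1.49, and Mpzl1, an immunoglobulin-fold protein related to myelin protein zero, by 1.78 ± 0.21 (SE; adjusted p = 0.00101).

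The sodium leak channel complex showed no called gene among 4 measured. Nalcn, its pore, was at 9.37, 9.73 and 9.75 in carotid body, against 9.40, 9.75 and 9.81 in adrenal medulla, a difference of -0.04 ± 0.16 (SE; adjusted p = 0.902). The values of both tissues fell in the same range. Unc80, a large scaffold of the complex, was at 9.14 to 10.01 on carotid body arrays and 9.61 to 10.26 on adrenal medulla arrays, a difference of -0.38 ± 0.26 (SE; adjusted p = 0.348).

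**Figure D5:**
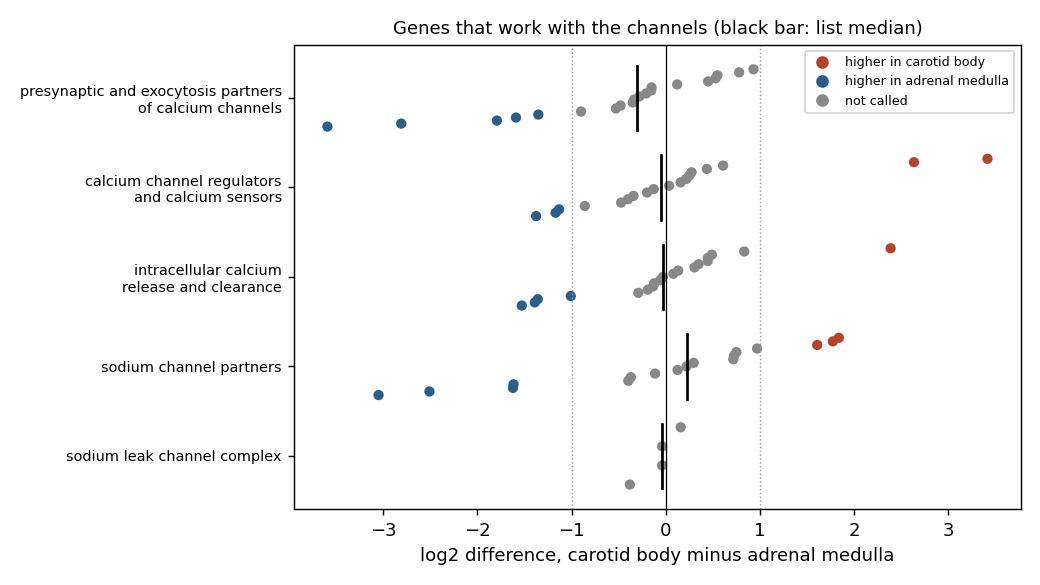
Log2 differences (x axis, carotid body minus adrenal medulla) of 78 measured genes listed as working with the channels are drawn by list. Genes are ordered by size within each list, with the median as a black bar and dotted lines at 2-fold. The presynaptic list has 5 genes lower in carotid body, down to -3.59, and 0 higher, while the sodium channel partners run from -3.05 to 1.84.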

How the data were processed

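The values, as deposited by the authors, were 1 log2 intensity per probe set and array. The submitters' processing notes name Affymetrix Expression Console; version, summarisation and normalization were not given in the sources used here. Tissue was stored in RNAlater, per the labels' protocols. No detection calls came with the values, and they were not normalized further. The number of arrays limits precision, and spread between pools may in part be technical.

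After 64 controls were removed from 45101 probe sets, 45037 entered limma 3.58.1 (R 4.3.3; lmFit, then eBayes; 2 groups, no block), checked on simulated data. Two-sided p-values were Benjamini-Hochberg adjusted over these 45037. Calls needed an adjusted p under 0.05 and 2-fold. The 2016 platform annotation gave 1 symbol to 34945 probe sets, several to 932 and none to 9160; RefSeq held 34741 of the gene IDs and changed 0 symbols. Python 3.11.15 made summaries and figures. Marker sums add linear intensities of brightest probe sets.

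Called members, calcium pore genes and the brightest member of each class are given in full, others by values or ranges; of each partner list, the 4 largest called differences, or the 2 brightest genes where none was called. Stx1a, Snap25, Cask, Unc13b, Syt1, Rims2, Camk2d, Atp2a2, Ank3, Mpzl2, Atp1b1 and Atp1b2 were added after their values were seen. Members and lists were chosen with earlier results of these data known. The submitters state that numbers mark cohorts, so they pair the samples; deviations from tissue means correlated at 0.22, 0.084 and 0.16 within cohorts and -0.21 to 0.10 across them. Alternatives were a cohort block, 2 other normalizations, a filter on dim probe sets, another variance model, array weights, gene means, no fold minimum, and leaving out arrays or cohorts.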

Additional observations from a re-analysis of the deposited data

How the results depend on the processing

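Scn7a, Cacna2d3 and Cacnb2 kept their direction and call under all alternatives run. Leaving out single arrays or cohorts gave 2 to 3 channel genes higher in carotid body and 1 to 6 lower, and for partner genes 4 to 7 higher and 10 to 18 lower; the lowest counts came without cohort 2, a fit of 2 arrays against 2. With the mean of all probe sets 2 channel genes were lower in carotid body. With no fold minimum 7 channel genes were higher and 7 lower, and 13 partner genes were higher and 19 lower. The replicate block by cohort gave 3 channel genes higher and 4 lower, and 6 and 16 partner genes, and changed no call of these counts. Leaving out dim probe sets left 22 of 35 channel genes and 66 of 78 partner genes; the called genes removed were Scn4b, Cabp1, Fgf14, Mpzl2 and Stac3. Centring arrays on their medians moved every difference by -0.115 on the log2 scale and added Cacna2d1 and Scn3a to the genes called lower.

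Among the genes whose differences were followed through the alternatives, which are not all channel and partner genes, 5 reversed sign under some setting, each called under none. Cacna1s gave -0.015 with centred arrays, and quantile normalization gave 0.12 for Cacng7 and 0.033 for Nalcn. Without 1 carotid body array, 1 adrenal medulla array and 1 cohort in turn, the ranges were -0.14 to 0.071, -0.082 to 0.017 and -0.16 to 0.03 for Cacna1a; -0.082 to -0.021, -0.087 to -0.033 and -0.11 to 0.0049 for Cacna1f; -0.13 to 0.29, 0.099 to 0.1 and -0.13 to 0.29 for Cacna1s; -0.092 to 0.088, -0.16 to 0.093 and -0.17 to 0.19 for Cacng7; -0.1 to 0.083, -0.16 to 0.04 and -0.044 to -0.026 for Nalcn. Cacna1a gave 0.030 without cohort 2 and 0.0036 without cohort 3. The causes were not tested.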
